A study of Mus musculus with 18 samples.

Results

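The change from 14 h to 30 h of estradiol was measured in G1E-ER4 cells, on 6 of the 18 arrays of the series: the 3 labelled 30 h and the 3 labelled 14 h. Every gene with a probe set of its own entered, 18194 in all, and the 12720 that lay above the 40th percentile of their array on at least 3 arrays were tested. G1E-ER4 is a mouse cell line with a disrupted Gata1 gene, with a fusion of the transcription factor GATA1 to part of the estrogen receptor, which estradiol activates. The cells of both groups carried that disruption and that fusion and were in 20 nM estradiol, and the labels separate the groups by hours alone. The 3 arrays at 21 h split the interval into a step of 7 h and a step of 9 h, and the 3 arrays at 0 h, before estradiol, gave the change over the earlier 14 h. This is 1 cell line, and time-matched cells without the hormone were not analysed here, so exposure, GATA1 activity and hours in culture cannot be told apart. Arrays of a time are labelled as biological replicates, but whether each had its own culture is not stated. The p-values therefore measure only the spread between these samples, which may be technical.

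Red cell precursors first switch on globin, heme and membrane genes under GATA1 and its partners while they go on dividing. Later they leave the cell cycle, condense the nucleus, stop making ribosomes and clear mitochondria and other organelles by autophagy and the ubiquitin system. G1E-ER4 cells follow the earlier part of that course in culture, and are used to study it.

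All values are the deposited log2 expression values, so a difference of 1 is a 2-fold change. How the arrays were brought to a common scale is not stated. Arrays of a time correlated across probe sets at a mean r of 0.996 at 14 h and 0.997 at 30 h, and 14 h arrays correlated with 30 h arrays at 0.983. The distance between the 3' and 5' probe sets of control transcripts, which widens as labelled RNA gets shorter, went from 1.87 to 2.20 for Actb, from 1.19 to 1.52 for Gapdh and from 2.03 to 2.41 for Tfrc between 14 h and 30 h. Its part in the changes given here was not tested. In bulk RNA of this kind, fewer cells that express a gene and less RNA per cell cannot be told apart. Red cell membrane genes were read at both times: 20 of the 21 measured lay above the arrays' 40th percentile. That count was the same at 0 h, and 12720 of all 18194 genes passed that bar on at least 3 arrays. The count alone therefore does not show erythroid identity. The summed level of the 21 on the linear scale was 15749 to 16431 at 0 h, 25983 to 26636 at 14 h and 40611 to 41702 at 30 h.

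Between 14 h and 30 h, 3609 of the 12720 genes tested rose (28.4%) and 3629 fell (28.5%; limma, adjusted p under 0.05). The counts were nearly equal but the sizes were not. By at least 2-fold, 388 genes rose (3.05%) and 929 fell (7.30%). The 3 arrays at 30 h all lay above the 3 at 14 h for 3982 genes (31.3%) and all below for 3843 (30.2%). The median change over all genes tested was 0.06. When arrays were scaled on their bacterial and phage hybridisation controls, 1642 genes were called higher and 2412 lower, 1638 and 2401 of them shared with the calls on the deposited scale.

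Where the change lay depended on the level of the gene. Among the 2562 genes with a mean under 4 over both times, 392 rose and 120 fell, with a median of 0.14. Between 6 and 8 the balance was the other way, with 600 genes higher and 944 lower of 2193, and a median of -0.13. Among the 2461 genes at 10 and over, 964 rose and 787 fell. The arrays' own 40th percentile went from 3.24 at 14 h to 3.32 at 30 h, so small rises of the dimmest genes move with the floor of the arrays, and the part of that floor in them was not tested.

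**Figure D1:**
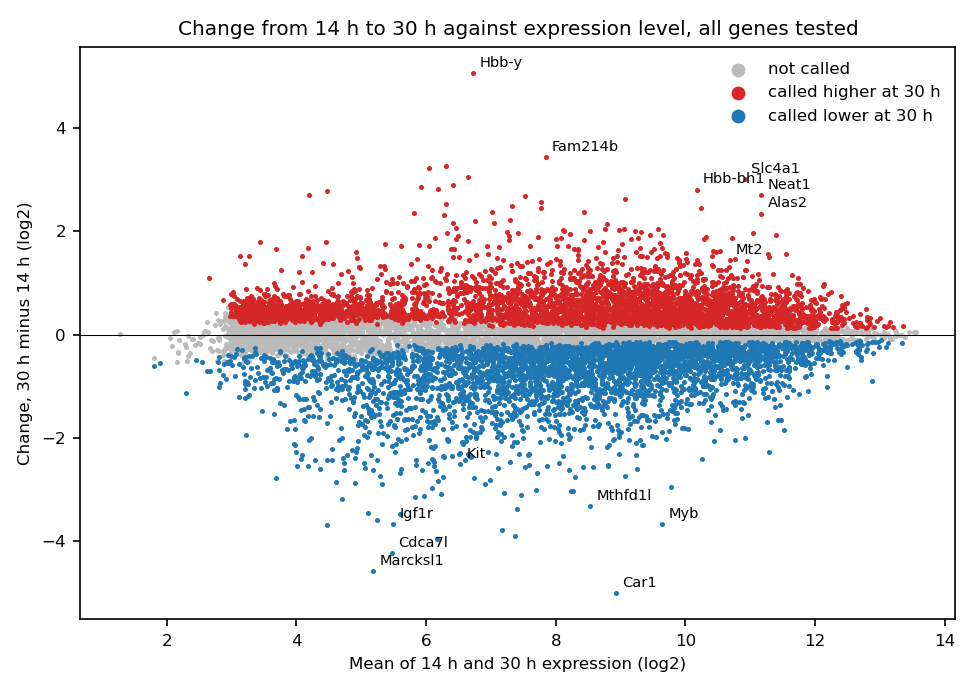
Change from 14 h to 30 h (log2, y axis) against the mean expression of both times (log2, x axis) for each of the 12720 genes tested, with red points for genes called higher, blue for genes called lower and grey for the rest. The blue cloud reaches further from 0 than the red one, as the 929 falls and 388 rises of at least 2-fold show.

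Hemoglobin genes gave the largest rise of the interval. Hbb-y, which encodes the embryonic epsilon-like beta globin chain, is the gene with the highest log2 change of all those named, and its promoter is shown for that reason. The capitals mark letters searched for in these promoters, CCAAT and TTTGAA, read on either strand; the sequence is RefSeq's for GRCm38.p6, 250 bases up to the start of the transcript, on the reverse strand at chr7:103853208-103853457.
Hbb-y: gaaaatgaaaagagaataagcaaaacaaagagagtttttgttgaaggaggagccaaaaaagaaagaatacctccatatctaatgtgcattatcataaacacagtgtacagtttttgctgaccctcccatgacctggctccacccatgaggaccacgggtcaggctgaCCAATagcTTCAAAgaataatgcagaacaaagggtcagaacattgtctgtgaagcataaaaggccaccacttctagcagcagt
At 14 h the 3 arrays read 3.67, 4.20 and 4.70, at 21 h 5.59, 5.62 and 5.28, and at 30 h 9.33, 9.25 and 9.21. The groups did not overlap, and the rise of 5.07 (SE 0.35, limma adjusted p = 4.76e-09) is 33.6-fold. Another probe set of Hbb-y gave 5.03 and a dimmer one 2.05. The brighter pair are of a kind marked as able to read similar transcripts, and globin genes resemble each other, so how much of the signal is Hbb-y alone is uncertain.

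The other embryonic globin genes rose with it. Hbb-bh1, a beta-like chain, read 8.49, 8.96 and 8.85 at 14 h and 11.57, 11.58 and 11.58 at 30 h, a rise of 2.81 (SE 0.13, adjusted p = 6.08e-11). Hba-x, the zeta chain that pairs with the embryonic beta chains, read 6.16, 6.19 and 6.18 and then 8.90, 8.82 and 8.88, a rise of 2.69 (adjusted p = 2.52e-09). On probe sets of their own the adult chains moved little: Hba-a2 changed by 0.0063 and Hbb-b2 by 0.16, and neither passed the test. Probe sets shared by several adult genes name none of them. The beta set changed by 0.058 and did not pass (limma adjusted p = 0.375 over all probe sets). The alpha sets rose by 0.68, 0.19 and 0.29, and all passed (limma adjusted p = 0.000648, 0.0136 and 0.000415). At 14 h the beta set stood at a mean of 13.25 and the alpha sets at 11.32, 13.54 and 12.84, the dimmest with the largest rise. Whether such high levels limit the rise that can be read was not tested. In all, 3 of 5 globin genes tested rose, with a median of 2.69, and the other differences were above 0 as well.

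Heme synthesis was led by Alas2, the erythroid enzyme that starts the pathway. Its promoter holds a GATA motif, AGATAA, read here on the other strand as TTATCT, and lies on the forward strand at chrX:150547167-150547416. The motif stood in 1 of 9 heme promoters (11.1%), against 6.31% of tested genes and 10.3% of all promoters. Among genes at least 2-fold higher the share was 6.15%, so the motif was not particular to genes that rose.
Alas2: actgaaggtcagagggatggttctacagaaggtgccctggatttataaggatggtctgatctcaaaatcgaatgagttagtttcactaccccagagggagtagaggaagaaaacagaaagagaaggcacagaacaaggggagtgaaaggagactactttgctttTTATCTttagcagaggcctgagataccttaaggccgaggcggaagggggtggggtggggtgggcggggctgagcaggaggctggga
Alas2 read 9.90, 9.97 and 10.11 at 14 h and 12.31, 12.33 and 12.37 at 30 h, without overlap, a rise of 2.35 (SE 0.082, adjusted p = 2.70e-12) or 5.08-fold. Of 10 heme genes tested, 6 rose and 1 fell, with a median of 0.20 against 0.06 over all genes. Fech, which inserts the iron, rose by 0.49, Ppox by 0.47, and Urod by 0.24. Alas1, the form used in other tissues, changed by -0.49. With scaling on the hybridisation controls 1 heme gene was called higher, Alas2.

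Of 18 iron genes 10 rose (55.6%) and 5 fell (27.8%), with a median of 0.18. Over all genes tested 28.4% rose and 28.5% fell, so the falls were near that share. Among those that rose were Fam210b, a mitochondrial protein of heme production, by 1.17, the ferritin-clearing receptor Ncoa4 by 0.92 and the mitochondrial importer Slc25a37 by 0.89. The exporter Slc40a1 (ferroportin) rose by 0.45. Among those that fell, the endosomal iron carrier Slc11a2 (DMT1) changed by -0.81, the sensor Tfr2 by -0.58 and the endosomal reductase Steap3 by -0.48, while Tfrc, the transferrin receptor, gave 0.088 and did not pass (adjusted p = 0.109). With control scaling 3 were called higher and 3 lower, and with only the 6 arrays fitted and the replicate number as a block the lower count was also 3.

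Membrane and cytoskeleton genes of the red cell rose in 12 of 21, with a median of 0.43, and 1 fell. Slc4a1, the band 3 anion exchanger, stood far ahead of the rest. It read 9.46, 9.35 and 9.40 at 14 h, 11.83, 11.79 and 11.88 at 21 h and 12.45, 12.40 and 12.42 at 30 h, with no overlap between times, a rise of 8.11-fold (3.02, SE 0.082, adjusted p = 2.32e-13). Another bright probe set gave 2.87, and a dim one 0.21 without passing. Dmtn, which bundles actin at the spectrin junctions, rose by 1.09, beta spectrin (Sptb) by 0.89, Xk by 0.87, and the adducin genes Add1 and Add2 by 0.79 and 0.68. Ankyrin (Ank1) rose by 0.76. The adhesion molecule Icam4 changed by -0.54. Dimmer probe sets of Sptb and Xk, at -0.037 and -0.15, did not pass.

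Of 23 erythroid regulators 52.2% rose, against 28.4% of all genes tested, and 26.1% fell, near the 28.5% of all. Gata1 read 10.17, 10.32 and 10.31 at 14 h and 11.10, 11.06 and 11.08 at 30 h, a rise of 0.81 (SE 0.081, adjusted p = 3.49e-07). The sources used here do not place its probe set against the disrupted part or the fusion, so this level checks neither. Klf1, the erythroid activator of adult globin genes, stood at 12.06, 12.08 and 12.06 and 12.09, 12.12 and 12.12, a difference of 0.044 that did not pass (adjusted p = 0.484). Of 23 regulators 12 rose, among them Klf3, a repressor that KLF1 induces, by 1.07, the MYC antagonist Mxd1 by 0.97, the heme-sensing repressor Bach1 by 0.80 and Nfe2 by 0.70. Tal1 and Zfpm1 (FOG1, a cofactor of GATA1) rose by 0.50 and 0.53. The 6 that fell include Bcl11a and Sox6, which silence embryonic globin genes in adult cells, at -0.77 and -0.51, and Gfi1b and Ldb1 at -0.34 and -0.50. Bcl11a read 10.84, 10.71 and 10.77 and then 9.9995, 10.03 and 9.97. Control scaling called 7 higher and 3 lower.

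**Figure D2:**
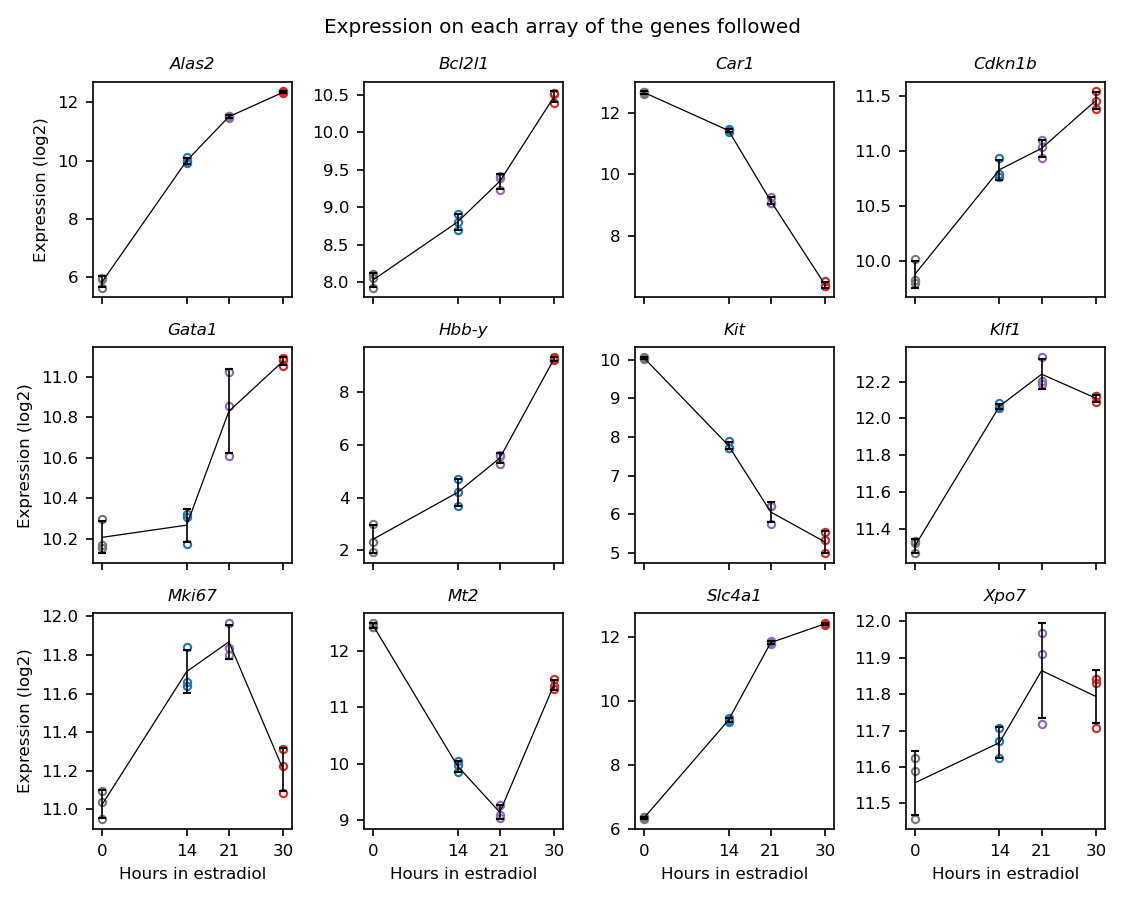
Expression (log2, y axis) of 12 genes on each array at 0, 14, 21 and 30 h in estradiol (x axis), with circles for arrays and bars for the mean with its SD over 3 arrays. Hbb-y and Alas2 climb and Car1 and Kit drop from 14 h to 30 h, Mt2 dips at 21 h before its rise, and Klf1 and Xpo7 differ by 0.044 and 0.13.

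Beside these, the largest rises belonged to genes of many functions. Fam214b read 6.26, 5.95 and 6.18 at 14 h and 9.67, 9.42 and 9.59 at 30 h, a rise of 3.43. Tmem150a rose by 3.26, Tbx6, a T-box factor of early mesoderm, by 3.22, and Sat2, of the spermidine acetyltransferase family, by 3.05. The noncoding RNA Neat1, the scaffold of nuclear paraspeckles, read 9.71, 9.75 and 9.99 and then 12.57, 12.45 and 12.53, a rise of 2.70 to a high level. P2rx7, an ATP-gated channel, rose by 2.86, the Rac exchange factor Prex1 by 2.82 and the Rab regulator Evi5l by 2.63. Mir22hg, the transcript from which the microRNA miR-22 is cut, rose by 2.91; the mature microRNA was not measured. The defensin Defb4 and the surface protein Cd177 rose by 2.79 and 2.71 from means of 3.08 and 2.84, below the arrays' 40th percentile, so their folds are uncertain.

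The deepest fall was that of Car1, carbonic anhydrase 1. It read 11.46, 11.37 and 11.45 at 14 h, 9.07, 9.27 and 9.07 at 21 h and 6.36, 6.36 and 6.53 at 30 h, a change of -5.01 (SE 0.066, adjusted p = 7.86e-17) or 32.2-fold lower. Marcksl1, an actin-binding protein, changed by -4.58 and ended at a mean of 2.90, below the 40th percentile, as did Sowaha at 2.63 (-3.69) and a transcript annotated as Mir1949 at 3.11 (-3.19). Cdca7l, a MYC-binding protein, changed by -4.24, the dynein gene Dnah11 by -3.97, the glutathione transferase Gsta4 by -3.91 and the neurofilament gene Nefh by -3.78. Iqgap2, a cytoskeletal scaffold, gave -3.60, Xkr5 -3.47, Lonrf2 -3.38 and Mthfd1l, the mitochondrial enzyme that releases formate, -3.32. The growth factor receptor gene Igf1r changed by -3.67 on the probe set used and by -2.51 on another, while 3 dimmer ones gave -0.30, -0.13 and -0.23 and did not pass. Etv5, an ETS factor, changed by -3.47, and by -1.87 and -0.25 on its other probe sets, the last without passing.

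**Figure D3:**
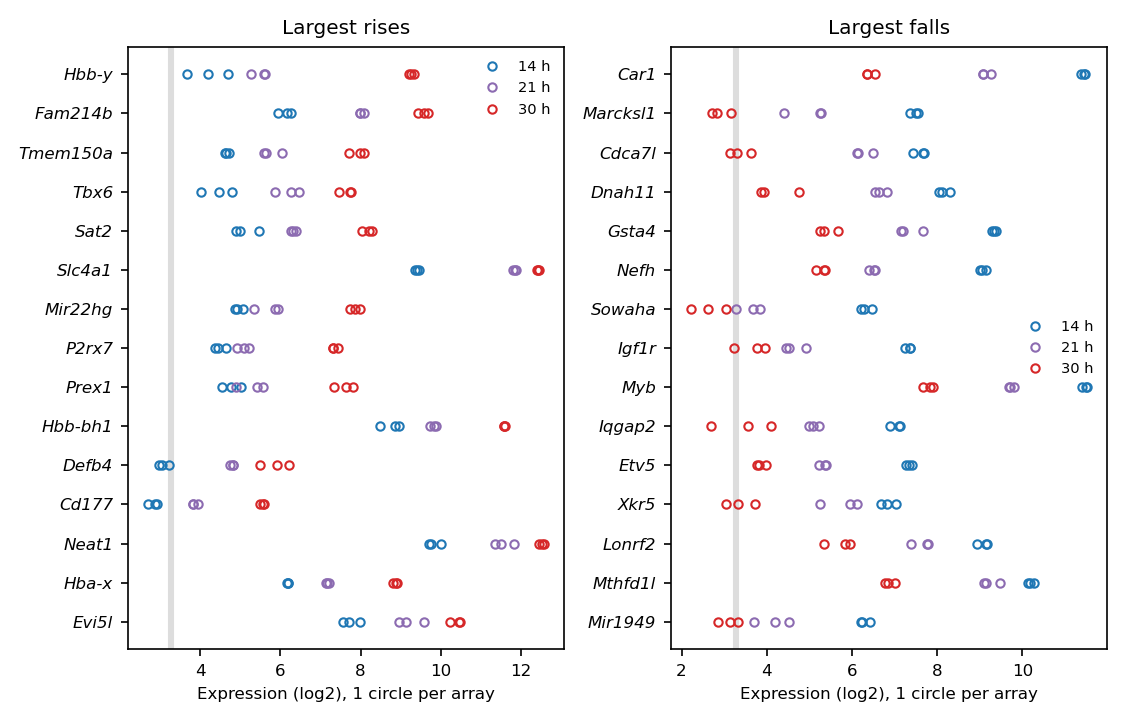
Expression (log2, x axis) on each array at 14, 21 and 30 h, 1 circle per array, of the 15 genes with the largest rises and the 15 with the largest falls (y axis), with the range of the arrays' 40th percentile shaded. Genes were chosen for arrays without overlap, so the circles at 30 h stand clear of those at 14 h in every row by construction. The 30 h means of Marcksl1, Sowaha and Mir1949 lie below the shaded band.

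Several genes of the progenitor state fell steeply. Myb, a driver of progenitor division, read 11.49, 11.52 and 11.41 at 14 h and 7.67, 7.84 and 7.91 at 30 h, a change of -3.67 (SE 0.069, adjusted p = 4.82e-15), and its other probe sets gave -4.71 and -4.41. Kit, the receptor for stem cell factor, read 7.72, 7.89 and 7.73 and then 5.32, 4.98 and 5.53, a change of -2.50. The progenitor transcription factor gene Lyl1 changed by -2.96, Cdk6 by -1.98, Gata2, which GATA1 displaces, by -1.83, and Myc by -1.74. Of 20 on the list 9 fell, 7 of them by at least 2-fold, and 5 rose, with a median of -0.10. The rises were small, with Fli1 highest at 0.50, and control scaling left 1 of them called. Stem cell factors such as Runx1, Erg and Hoxa9 did not pass (0.041, 0.045 and 0.11).

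Genes of growth factor signalling were split. Of 18 immediate early and feedback genes 7 rose and 7 fell, with a median of 0.18, which turned to -0.12 with the stricter filter at the 60th percentile. Control scaling called 4 higher and 7 lower. Klf10, an early target of TGF-beta, changed by -3.10, and the receptor kinase inhibitors Spry4 and Spry1 by -2.14 and -1.77; Spry4 ended below the arrays' 40th percentile. Fos changed by -0.87 to a mean below it, and Dusp1, a MAP kinase phosphatase, by -0.77. The Jun genes went the other way, with Jun at 0.93, Jund at 0.81 and Junb at 0.43, and Klf6 rose by 1.252.

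All 41 of 41 genes of DNA replication and the G1-S transition fell, 26 of them by at least 2-fold, with a median of -1.14. Exo1, a repair and replication nuclease, read 9.64, 9.76 and 9.68 at 14 h and 7.03, 7.07 and 7.30 at 30 h, a change of -2.56 (SE 0.080, adjusted p = 1.04e-12). Enzymes of thymidine nucleotide supply fell with it: Dut changed by -2.40, Tk1 by -2.14 and Tyms by -1.68. The checkpoint kinase Chek1 changed by -2.13 and the histone chaperone Chaf1b by -1.996. Every MCM gene on the list fell, from -1.83 for Mcm10 and -1.44 for Mcm3 to -0.64 for Mcm5. Fen1 and Rrm2 moved least, at -0.21 and -0.37.

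The E2F motif TTCCCGC, searched on both strands in the 250 bases before the start, stood in 9 of the 34 replication genes with a promoter in the RefSeq table (26.5%), against 6.62% of the 10260 tested genes with a promoter and 3.84% of all 27025 promoters. Examples are shown for Chaf1b and for Uhrf1, which recruits the maintenance DNA methyltransferase, with matches in capitals. Chaf1b lies on the forward strand at chr16:93883651-93883900, its match reading GCGGGAA, and Uhrf1 on the forward strand at chr17:56303087-56303336, with a CCAAT match beside it.
Chaf1b: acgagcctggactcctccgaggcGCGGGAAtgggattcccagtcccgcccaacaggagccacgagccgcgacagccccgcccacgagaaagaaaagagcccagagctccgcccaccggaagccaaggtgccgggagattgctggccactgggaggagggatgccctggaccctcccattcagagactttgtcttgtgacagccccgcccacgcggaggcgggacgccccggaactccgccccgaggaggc
Uhrf1: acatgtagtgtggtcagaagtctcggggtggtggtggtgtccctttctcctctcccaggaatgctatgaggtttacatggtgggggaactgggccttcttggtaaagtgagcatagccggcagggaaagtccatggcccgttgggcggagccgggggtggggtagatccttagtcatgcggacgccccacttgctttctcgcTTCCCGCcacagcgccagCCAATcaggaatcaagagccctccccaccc
Uhrf1 read 11.74, 11.78 and 11.69 at 14 h and 10.10, 10.23 and 10.24 at 30 h, a change of -1.55. A match is a description of the letters and no evidence of binding.

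Mitosis genes fell with a smaller median. Of 42 tested, 34 fell, 8 of them by at least 2-fold, with a median of -0.59. Aurkb, the kinase of the chromosomal passenger complex, read 9.71, 9.65 and 9.67 and then 8.30, 8.45 and 8.44, a change of -1.28 (SE 0.054, adjusted p = 1.75e-11). The spindle checkpoint kinases Ttk and Bub1b changed by -1.23 and -1.16, the spindle motor Kif11 by -1.10 and Cdk1 by -1.07. Mki67, the proliferation marker Ki-67, read 11.84, 11.64 and 11.66 and 11.09, 11.31 and 11.22, a change of -0.51 (adjusted p = 2.43e-05). Pttg1 (securin), Nusap1 and Cdc25b gave 0.063, 0.061 and -0.037 and did not pass. Control scaling called 26 lower.

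Other letters were frequent in promoters of the mitosis genes, though not in these alone. CCAAT stood in 25 of 35 (71.4%), against 36.4% of tested genes, and the cell cycle homology region TTTGAA in 11 (31.4%), against 10.5%. The E2F letters stood in 0 of the 35. Mki67, on the reverse strand at chr7:135716380-135716629, holds 3 CCAAT and 2 TTTGAA matches, and Kif11, on the forward strand at chr19:37376132-37376381, holds 1 of each, here as ATTGG and TTCAAA on the other strand.
Mki67: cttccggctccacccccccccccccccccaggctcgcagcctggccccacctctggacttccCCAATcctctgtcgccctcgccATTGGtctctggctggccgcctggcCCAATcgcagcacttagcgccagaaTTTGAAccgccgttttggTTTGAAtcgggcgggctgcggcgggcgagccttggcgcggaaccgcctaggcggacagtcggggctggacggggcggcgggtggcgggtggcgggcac
Kif11: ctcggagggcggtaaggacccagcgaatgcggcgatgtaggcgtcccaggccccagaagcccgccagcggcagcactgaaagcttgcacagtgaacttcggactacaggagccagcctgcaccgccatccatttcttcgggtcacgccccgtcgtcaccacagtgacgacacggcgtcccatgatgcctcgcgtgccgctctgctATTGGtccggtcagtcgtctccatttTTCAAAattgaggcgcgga
CCAAT was also frequent among cholesterol genes, in 14 of 15 promoters (93.3%), so it is not particular to genes that fell. It stood in 19 of 34 replication promoters (55.9%) too. Among chromatin genes CCAAT stood in 16 of 27 (59.3%) and TTTGAA in 10 (37%), so neither was particular to the mitosis list.

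The arrays at 21 h divide these falls into steps. From 14 h to 21 h the replication list had a median of -0.12, with 18 genes lower (background 17.5%), and from 21 h to 30 h a median of -1.02, with 41 lower (background 22.5%). The mitosis list had a median of 0.11 in the earlier step, with 13 genes higher (background 15.7%) and 4 lower, and -0.68 in the later, with 41 lower. The difference of the steps, tested as its own contrast, was called lower for 39 replication genes and 39 mitosis genes, where 9.10% of all genes were. The mean of the hybridisation controls was 11.93 at 21 h, against 11.72 at 14 h and 11.74 at 30 h. The 21 h arrays read 11.94, 12.20 and 11.66. Scaling on these controls turned the earlier mitosis median to -0.11 with 0 genes higher, and left 1 replication and 0 mitosis genes called in the contrast. On that scale 35 replication and 19 mitosis genes were lower in the later step (753 of all 12720 genes), against 10 and 0 in the earlier (1656 of all). The contrast medians minus that of all genes were -0.91 and -0.76 on both scales, which array-wide shifts cannot change.

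Most CDK inhibitors and RB family genes rose, while most D cyclins, CDKs and E2F factors fell. Of 10 CDK inhibitors and RB family genes 8 rose, with a median of 0.58. Cdkn2c, an inhibitor of CDK4 and CDK6, read 9.59, 9.67 and 9.63 and then 10.69, 10.80 and 10.65, a rise of 1.08; Cdkn2d rose by 0.996. Cdkn1b (p27) read 10.77, 10.94 and 10.79 and then 11.55, 11.39 and 11.46, a rise of 0.63 (adjusted p = 5.02e-06), and Cdkn1a (p21) rose by 0.52. The antiproliferative genes Btg1 and Btg2 rose by 0.81 and 0.85, and the pocket protein genes Rb1 and Rbl2 by 0.25 and 0.36, while Rbl1, itself an E2F target, changed by -1.33. Of 16 D cyclins, CDKs and E2F factors 12 fell, with a median of -1.01: Cdk4 changed by -1.11, Cdk2 by -0.95, E2f1 by -1.48, E2f7 by -1.49 and E2f3 by -1.19 on the brighter of its probe sets. Ccnd2 and Ccnd1 fell and Ccnd3, the main D cyclin of erythroid cells, rose by 0.23. E2f2 differed by 0.016 between 14 h and 30 h, and its means were 8.29, 8.88 and 8.30 at 14, 21 and 30 h. Control scaling called 12 of the 16 D cyclins, CDKs and E2F factors lower and 0 higher.

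Genes of ribosome production fell throughout the list. All 38 of 38 ribosome biogenesis genes tested were lower, 31 of them by at least 2-fold, with a median of -1.37, and control scaling called all 38. Nolc1, a nucleolar phosphoprotein, read 10.06, 9.70 and 9.79 and then 7.32, 7.18 and 7.35, a change of -2.57 (SE 0.11, adjusted p = 1.67e-11). Gar1, a protein of the H/ACA complexes that modify ribosomal RNA, changed by -2.32, the processing factors Tsr1 and Rrp1b by -2.17 and -2.11, and Polr1a, the catalytic subunit of RNA polymerase I, by -1.71. Npm1, an abundant nucleolar chaperone, fell by less, at -0.59. The fall ran through both steps, with medians of -0.54 and -0.84. The array's 18S ribosomal RNA controls, which enter no gene count, went from 7.53 to 6.99 (3'), 11.03 to 10.47 (middle) and 7.58 to 6.08 (5'). Their distance between 3' and 5' went from -0.055 to 0.91. The part of RNA length and labelling in these readings was not tested.

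**Figure D4:**
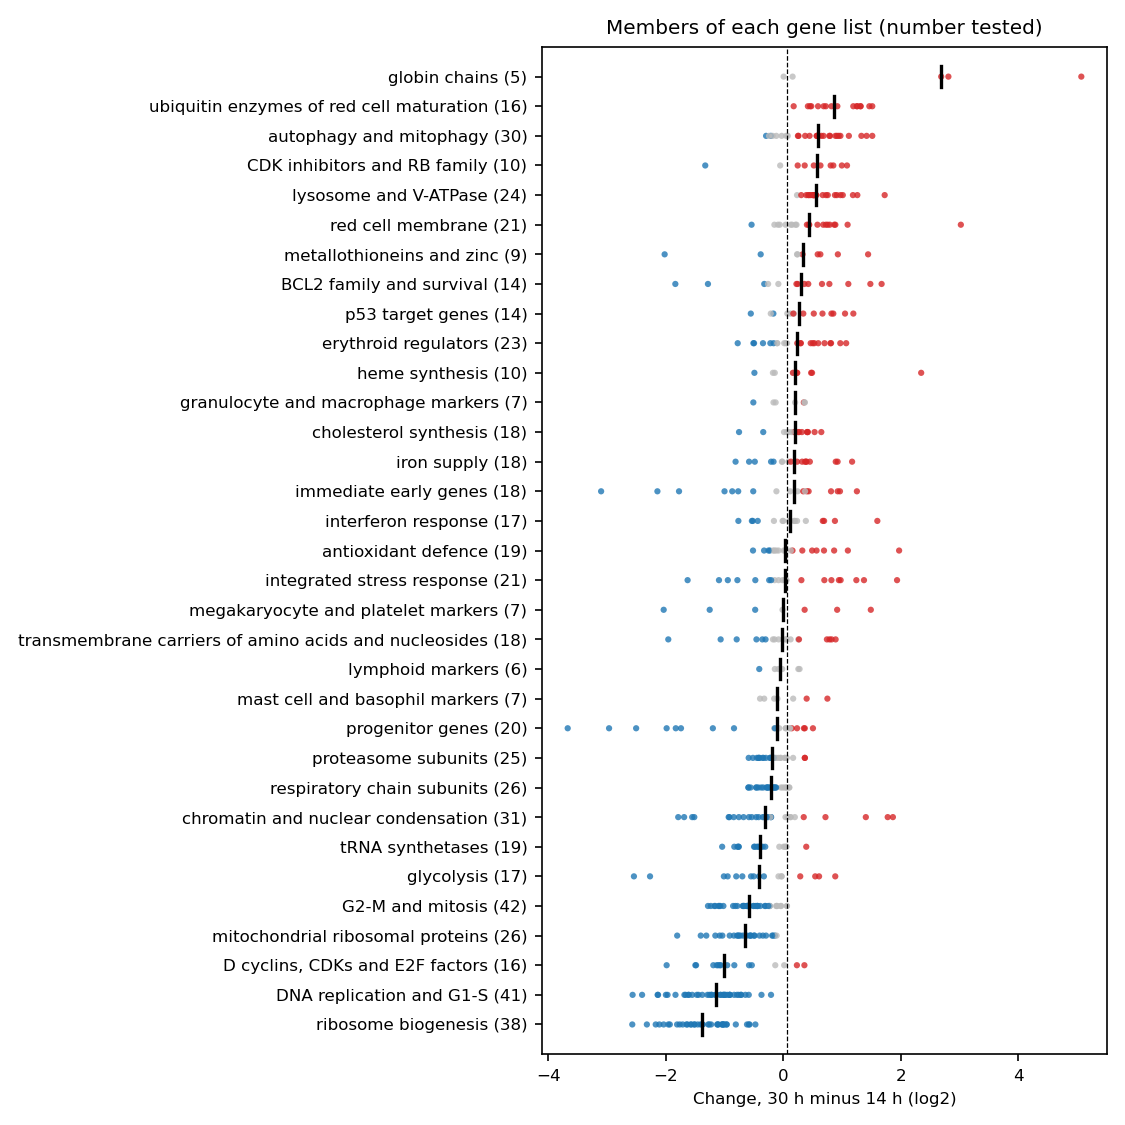
Change from 14 h to 30 h (log2, x axis) of each member of the gene lists (y axis, with the number tested), red where called higher, blue where called lower and grey where neither, with a black bar for the list's median and a dashed line for the median of all genes, 0.06. Ribosome biogenesis (-1.37) and DNA replication (-1.14) lie wholly to the left, and ubiquitin enzymes (0.87), autophagy (0.58) and lysosome genes (0.55) to the right.

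Mitochondrial genes fell too, by less. Of 26 mitochondrial ribosomal protein genes 25 fell, and the last was below 0 too (Mrpl13 -0.11), with a median of -0.65. Mrpl12, which also binds the mitochondrial RNA polymerase, read 10.89, 10.74 and 10.91 and then 8.96, 9.18 and 8.99, a change of -1.80, and Mrps27 and Mrps28 changed by -1.40 and -1.31. Nuclear genes of respiratory chain subunits fell in 19 of 26 with a median of -0.21, led by Uqcrc1 (-0.59), Cyc1 (-0.59) and Sdhc (-0.56). That count rests on small changes: control scaling gave 5, and the block by replicate number on the 6 arrays alone gave 12.

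Glycolysis genes fell in 10 of 17 and rose in 4, with a median of -0.41. Hk2, the inducible hexokinase, read 9.16, 9.22 and 9.01 at 14 h, 7.37, 7.495 and 7.41 at 21 h and 6.64, 6.47 and 6.66 at 30 h, a change of -2.54. Ldha, which makes lactate, read 12.36, 12.45 and 12.44 and then 10.19, 10.07 and 10.19, a change of -2.27 (SE 0.050, adjusted p = 2.02e-14). Pfkl, Tpi1 and Pgk1 changed by -1.01, -0.95 and -0.80. The members that rose include Hk1, the hexokinase of mature red cells, at 0.54, Pfkp at 0.88 and Bpgm, which makes the 2,3-bisphosphoglycerate that tunes hemoglobin, at 0.29. Gapdh and Aldoa did not pass (-0.081 and -0.028).

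Degradation genes rose. Of 30 autophagy and mitophagy genes 22 rose and 2 fell, with a median of 0.58. Atg9a, the membrane protein that seeds autophagosomes, read 8.81, 8.996 and 8.74 and then 10.45, 10.26 and 10.39, a rise of 1.51 (SE 0.080, adjusted p = 2.28e-10). Wipi1 rose by 1.42, the mitophagy kinase Pink1 by 1.33, the ATG8 family genes Map1lc3a and Gabarap by 1.12 and 0.97, and the starting kinase Ulk1 by 0.91. Atg5 and Atg101 fell, at -0.29 and -0.21, and Atg7 did not pass (-0.028). Control scaling called 18 higher and 0 lower.

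Lysosome and proton pump genes rose in 23 of 24, and the last was above 0 too (Gla 0.23), with a median of 0.55. Ctsa, the protective cathepsin, read 7.31, 7.36 and 7.32 and then 9.16, 8.96 and 9.05, a rise of 1.72. The pump subunit Atp6v0d1 rose by 1.26, the sialidase Neu1, which Ctsa protects, by 1.19, and the lysosomal calcium channel Mcoln1 by 1.01. The E-box CACGTG, the core of the sites that TFEB and related factors bind, stood in 7 of 19 promoters of the list (36.8%), against 8.27% of tested genes. Mcoln1, on the forward strand at chr8:3500269-3500518, holds 2 of them, along with a match each of TTCCCGC and TTTGAA.
Mcoln1: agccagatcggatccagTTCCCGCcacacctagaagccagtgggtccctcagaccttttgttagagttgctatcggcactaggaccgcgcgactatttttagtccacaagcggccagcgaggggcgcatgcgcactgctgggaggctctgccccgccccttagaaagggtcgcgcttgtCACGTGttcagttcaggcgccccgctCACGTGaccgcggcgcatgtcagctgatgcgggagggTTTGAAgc
Control scaling called 17 lysosome genes higher. Tfeb itself gave -0.24 and did not pass (adjusted p = 0.160).

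All 16 of 16 tested ubiquitin enzymes tied to red cell maturation rose, 7 of them by at least 2-fold, with a median of 0.87. Marchf2, a membrane ubiquitin ligase, read 9.50, 9.65 and 9.79 and then 11.13, 11.19 and 11.17, a rise of 1.51. Ube2h, a conjugating enzyme, read 10.02, 9.998 and 10.08 and then 11.56, 11.45 and 11.48, a rise of 1.46 (SE 0.061, adjusted p = 1.70e-11). Ube2o, which marks unassembled globin and ribosomal proteins, rose by 1.249, and Marchf8, Ube2r2 and Fbxo30 by 1.32, 1.31 and 1.26. Control scaling called 12 of the 16 higher, and without the filter on low values 15 of 17 were called higher. The proteasome takes the marked proteins: 13 of 25 subunit genes fell and 2 rose, with a median of -0.19, led by Psma4 (-0.59), Psma7 (-0.52) and Psmb5 (-0.45). Control scaling called 2 of them lower and 0 higher.

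Amino acid and stress pathways were mixed. The integrated stress response list had 8 of 21 genes higher (38.1%) and 7 lower (33.3%), with a median of 0.026. Of all genes tested 28.4% were higher and 28.5% lower. Nupr1, a stress-induced chromatin protein, read 8.78, 8.49 and 8.79 and then 10.59, 10.65 and 10.63, a rise of 1.94. Ppp1r15a, which reverses the phosphorylation of eIF2, rose by 1.37, Atf5 by 1.24 and Eif2ak1, the heme-regulated kinase of eIF2, by 0.70. The serine synthesis genes Psph and Psat1 changed by -1.63 and -1.09, and Atf4 by -0.24. Transfer RNA synthetases fell in 13 of 19 and rose in 1, with a median of -0.40, led by Vars (-1.04) and Gars (-0.83); Aars rose by 0.39. Control scaling called 7 synthetase genes lower and 0 higher.

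Among carriers of amino acids and nucleosides 5 of 18 were higher (27.8%) and 6 lower (33.3%), near the 28.4% and 28.5% of all genes tested. Their median was -0.023. The nucleoside carrier Slc29a1 changed by -1.96, Slc1a4 by -1.06 and the arginine carrier Slc7a1 by -0.79. Slc38a5, a carrier of glutamine and glycine, read 10.17, 10.08 and 10.10 and then 10.98, 11.00 and 11.04, a rise of 0.89, and Slc6a9, the glycine carrier of heme-making cells, rose by 0.74.

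Hmox1, which encodes heme oxygenase, led the genes of oxidant defence. It read 6.45, 6.496 and 6.37 at 14 h, 6.49, 6.32 and 6.48 at 21 h and 8.50, 8.43 and 8.30 at 30 h, a rise of 1.97 (SE 0.096, adjusted p = 8.52e-11) after a step of -0.0093 to 21 h that did not pass (adjusted p = 0.953). Its step contrast was 1.99 (adjusted p = 2.53e-06), or 2.39 on the control scale, where adjusted p = 5.23e-07. Of 19 antioxidant genes 8 rose and 4 fell, with a median of 0.037; Txnrd2 rose by 1.10, Srxn1 by 0.87, catalase (Cat) by 0.69, and Sod2 changed by -0.51. Control scaling called 5 higher and 1 lower.

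Mt2, a metallothionein that binds zinc and copper, had the highest step contrast of the genes named. It read 9.86, 9.98 and 10.05 at 14 h, 9.10, 9.05 and 9.28 at 21 h and 11.51, 11.37 and 11.33 at 30 h, so it changed by -0.82 and then rose by 2.26, a difference of 3.08 (SE 0.12, adjusted p = 8.80e-10) and of 3.49 with control scaling. Mt1 also fell and then rose, from a mean of 12.35 to 11.88 to 12.68. The zinc exporter Slc30a1 rose by 0.93, the metal-sensing factor Mtf1 by 0.63 and the zinc importer Slc39a8 by 0.59, while the importer Slc39a10 changed by -2.02. In all 5 of 9 zinc genes rose and 2 fell, with a median of 0.33, and control scaling called 4 higher and 1 lower.

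In cholesterol synthesis 10 of 18 genes were higher and 2 lower, with a median of 0.19. Fdft1, squalene synthase, rose by 0.65, Msmo1 by 0.53 and Cyp51 by 0.42, while Tm7sf2 and Dhcr7 changed by -0.75 and -0.34. These are small changes: control scaling called 2 higher and 1 lower, and the fit of the 6 arrays alone called 6.

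Survival genes shifted within the BCL2 family. Bcl2l1, which encodes BCL-XL, the survival protein of late erythroid cells, read 8.69, 8.80 and 8.92 at 14 h, 9.42, 9.24 and 9.39 at 21 h and 10.53, 10.39 and 10.51 at 30 h, a rise of 1.67 (SE 0.074, adjusted p = 2.87e-11). Bcl2 went the other way, from 4.95, 4.70 and 5.02 to 3.33, 2.64 and 3.20, a change of -1.84 that ended below the arrays' 40th percentile. Among the killers, Bid changed by -1.28 and Bbc3 (PUMA) rose by 1.11. Cish, a feedback inhibitor of the erythropoietin receptor's STAT5 signal, rose by 1.48. Of 14 genes 9 rose and 3 fell, with a median of 0.30, and control scaling called 5 higher.

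Of 14 p53 target genes 8 rose and 2 fell, with a median of 0.26; control scaling called 6 higher and 1 lower. Sesn1, a stress inhibitor of mTORC1, rose by 1.19, Trp53inp1 by 1.05, Gadd45a by 0.82 and Mdm2, the p53 ligase, by 0.34. Eda2r, a death domain receptor, read 7.95, 8.01 and 7.71 at 14 h, 7.34, 7.43 and 7.05 at 21 h and 8.65, 8.53 and 8.49 at 30 h, a dip and a rise with a step contrast of 1.90 (adjusted p = 3.85e-06). Interferon response genes had 4 of 17 higher and 4 lower (23.5% each), against 28.4% and 28.5% of all genes tested, with a median of 0.12. Irf7 rose by 1.6002 and Irf9 by 0.88, and Psmb9 changed by -0.76. The count of lower genes there was 2 without 14 h replicate 3, 2 without 30 h replicate 2 and 2 with the 60th-percentile filter, and the count of higher genes was 7 with quantile normalization.

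Chromatin genes fell in 19 of 31 and rose in 5, with a median of -0.32. Dnmt3b, a DNA methyltransferase, read 8.69, 8.71 and 8.59 and then 6.98, 6.76 and 6.90, a change of -1.79, and the chromatin protein Hmgb3 and lamin B1 (Lmnb1) changed by -1.69 and -1.51. Polycomb's methyltransferase genes went opposite ways: Ezh1 read 7.00, 7.17 and 7.28 and then 9.10, 8.86 and 9.08, a rise of 1.86 (adjusted p = 2.31e-08), and Ezh2 changed by -0.42. The linker histone gene H1f2 rose by 1.78, Hdac5 by 1.40 and lamin A (Lmna) by 0.72. Xpo7, the nuclear exporter of erythroid cells, stood at 11.62, 11.67 and 11.71 and then 11.84, 11.71 and 11.83 and did not pass (adjusted p = 0.135); of its dimmer probe sets 1 was called higher (0.25) and others lower (-0.49 and -0.34). Control scaling called 12 genes lower.

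**Figure D5:**
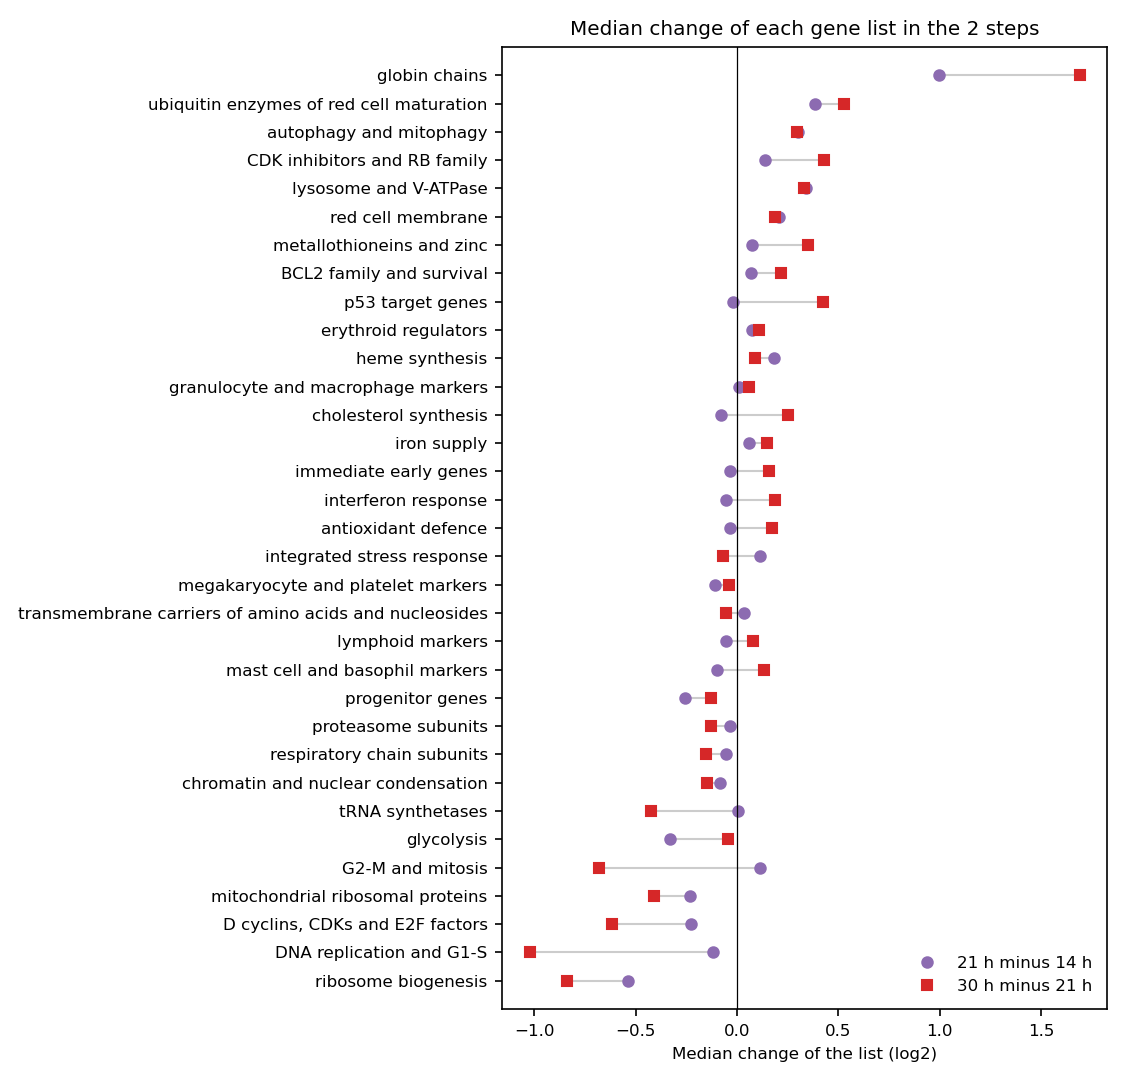
Median change (log2, x axis) of each gene list (y axis) from 14 h to 21 h (circles) and from 21 h to 30 h (squares) on the deposited scale. DNA replication goes from -0.12 to -1.02 and mitosis from 0.11 to -0.68, while autophagy is at 0.30 and 0.30 and lysosome genes are at 0.34 and 0.33; scaled on hybridisation controls, autophagy goes from 0.087 to 0.49 and lysosome genes from 0.13 to 0.52.

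Across all genes the step contrast was called higher for 918 (7.22%) and lower for 1158 (9.10%). It compares the change over the last 9 h with that over the 7 h before and is not per hour. On the control scale the split was 532 higher and 18 lower, with the median of all genes moving from -0.035 to 0.37. The fit of its own 9 arrays gave 411 and 516, and the lower count was 752 without 21 h replicate 1. Beside Mt2 and Hbb-y (2.46), the highest contrasts include genes that had dropped by 21 h and whose later step did not pass. Dctd, a pyrimidine deaminase, had means of 5.45, 3.04 and 2.90, the last below the 40th percentile, and the sulfate carrier Slc26a1 6.35, 3.83 and 3.47. Ak1, an adenylate kinase, dropped from 4.92 to 3.66 and came back to 4.53.

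At the other end, Slc4a1 had gained 2.43 by 21 h and 0.59 after it, a contrast of -1.84 (adjusted p = 1.49e-06). Slc52a3, a riboflavin carrier, read 7.25, 7.21 and 7.18 at 14 h, 8.79, 8.79 and 8.60 at 21 h and 8.53, 8.62 and 8.73 at 30 h, a later step of -0.10 that did not pass (adjusted p = 0.734). Tcf19 and the kinesin Kif14, genes of dividing cells, had a first step that did not pass and then fell, with means of 9.88, 9.84 and 8.03 and of 5.38, 5.62 and 4.12. The helicase Pif1 rose by 0.59 and then changed by -1.04. All 5 were called with control scaling too (adjusted p from 0.00512 to 0.0332).

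The change from 14 h to 30 h was also tested against that from 0 h to 14 h, with which it shares the 14 h arrays. The difference was called higher for 1800 genes (14.2%) and lower for 2652 (20.8%), and for 339 and 1535 with control scaling, which moved the median of all genes from 0.0021 to -0.25. Genes that rose steeply at first and then slowed include Dmtn, at 5.64 from 0 h to 14 h and 1.09 after it (difference -4.54, adjusted p = 5.44e-12), Slc38a5 at 5.07 and 0.89, and Alas2 at 4.15 and 2.35. Slc4a1 rose by 3.06 and then by 3.02, and the difference of -0.044 did not pass (SE 0.14, adjusted p = 0.854). P2rx7 and Mir22hg turned from lower to higher, at -1.004 and 2.86 and at -0.67 and 2.91. Neat1 did not pass from 0 h to 14 h (-0.042, adjusted p = 0.772) and rose after it. The difference was called lower for all 41 replication genes (38 with control scaling), their median over the earlier one being 0.17.

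Most mast cell, granulocyte and lymphoid genes were dim at both times. Of 13 mast cell and basophil genes on the array 9 lay below the 40th percentile at 14 h and 8 at 30 h, and their summed linear level was 114 to 124 at 14 h and 119 to 134 at 30 h. Of 16 granulocyte and macrophage genes 10 lay below it at each time, with sums of 162 to 168 and 155 to 178, and of 14 lymphoid genes 9 and then 10, with sums of 113 to 125 at each time. The sum of 12 megakaryocyte and platelet genes went from 940 to 999 at 14 h to 2002 to 2036 at 30 h, and 78.0% of it at 30 h was Tubb1, a beta tubulin, which rose by 1.49. The rest of the list was split: Itgb3 rose by 0.92 and the platelet genes Gp5 and Pf4 changed by -2.03 and -1.251.

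Tested members of these lists that passed were 2 of 7 mast cell genes (Gzmb 0.75, from a mean of 2.66 below the 40th percentile, and Tpsb2 0.40), 3 higher and 3 lower of 7 megakaryocyte genes, Csf1r (0.35) and Cd68 (-0.51) of 7 granulocyte and macrophage genes, and Ighm (-0.41) of 6 lymphoid genes. The calls of Tpsb2, Ighm, Treml1 and Csf1r were lost with control scaling. The Ighm arrays overlapped, and another of its probe sets was called the opposite way (0.58). Tpsb2 and Ighm were not called with the 6 arrays alone (adjusted p = 0.0639 and 0.101), Treml1 (-0.48) was not without 30 h replicate 1 (adjusted p = 0.0737), and Csf1r was not without 30 h replicate 3 (adjusted p = 0.0563). The part of other cell types in the changes given above was not tested beyond these levels.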

How the data were processed

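Total RNA of G1E-ER4 cells was labelled with biotin and read on 1-colour Affymetrix arrays, per the labels' protocols. For each of 45101 probe sets the authors deposited 1 value per array on a log2 scale, a base inferred from their range; the sources used here do not give the steps of summary, background correction and scaling. Genes were named through the platform annotation, 34958 probe sets with 1 gene, 932 with several and 9211 with none; those with several or none were left out. RefSeq (GRCm38.p6) changed 0 symbols.

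The probe set with the highest mean stood for a gene. All 18 arrays were fitted with limma 3.58.1 in R 4.3.3, a mean per time and 12 residual degrees of freedom, two-sided, with Benjamini-Hochberg adjustment over 12720 genes, called at 0.05. The number of arrays, 3 per time, limits the precision. The fit was tested on simulated data. Alternatives changed 1 choice at a time, except the replicate block fitted on the 6 arrays alone, and are given in the closing section.

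Named are the 15 largest rises and falls without overlap, 5 genes at each end of the step contrast, up to 5 members of each of 33 lists, and 12 genes followed; other list members are named for their role or their values and were chosen after their values were seen. The members and lists were chosen with earlier results of these data known. Same-numbered arrays at 14 h and 30 h deviated together (r 0.132, 0.180 and 0.117, each over 0.1), so by the rule used the numbers pair these arrays. The numbers come from the labels. Differently numbered arrays of these times gave -0.180 to 0.037. With 21 h, same-numbered arrays gave -0.170, 0.060 and -0.146 for 14 h and 0.188, 0.033 and -0.112 for 30 h. Differently numbered arrays at 21 h and 30 h reached 0.280, so values of this size do not establish a pairing.

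Motifs were searched in RefSeq promoters, 250 bases before the start. Of the list genes, 681 of 731 had a probe set of their own and 622 were tested.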

Additional observations from a re-analysis of the deposited data

Results flagged for a closer look

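Probe sets that the annotation ties to no gene were left out of every comparison above. Of the 4526 that passed the same filter on low values, 1004 rose and 868 fell between 14 h and 30 h by limma over all probe sets, 133 and 216 of them by at least 2-fold. They have no control samples of their own, and what they measure was not analysed here.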

How the results depend on the processing

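The counts of genes from 14 h to 30 h kept within 1.5 times their value, at 3027 to 3874 higher and 3440 to 3712 lower, under quantile normalization, equal medians, no filter, the 60th-percentile filter, the mean of probe sets, no _x_at or _s_at probe sets, only the arrays compared, a trended and robust variance and the blocks. Scaling on hybridisation controls gave 1642 and 2412. Leaving out an array gave 3133 to 3493 higher and 3389 to 3544 lower, and 369 to 420 and 874 to 957 by at least 2-fold. The step contrast, 918 higher and 1158 lower, gave 532 and 18 with control scaling, 411 and 516 with only its own arrays, and 769 to 963 and 752 to 1212 without an array. The contrast of the later with the earlier interval gave 339 and 1535 with control scaling and 1426 to 1776 and 2178 to 2601 without an array. The replicate block, which pairs arrays by number, gave 3615 higher and 3604 lower, 3510 and 3578 of them shared, and with only the 6 arrays, an alternative added after seeing the data, 3627 and 3461; beside the list counts given in the text, Ighm (adjusted p = 0.0533) and Tpsb2 (adjusted p = 0.0980) lost their call in the latter. Of 3166 values of named genes under alternatives, 3135 kept direction and call, 31 in 14 genes lost the call and 0 reversed. With control scaling 14 genes lost it, with adjusted p from 0.0515 (Treml1) to 0.448 (Urod), and Ppox (0.0672) and Ak1 (0.0626) with the mean of probe sets. The 60th-percentile filter turned the medians of immediate early genes (-0.12) and of granulocyte genes (-0.51, 1 gene) and left no lymphoid gene, so it gives no value there. Causes were not tested, except that fewer arrays or genes enter by construction. Signal over background limits the dim genes: 454 genes tested lay below the 40th percentile at both times.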
